A study of Mus musculus with 9 samples.

Results

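Imprinted growth genes are genes that regulate fetal and postnatal growth and are transcribed from a single parental allele. A set of 10 of them was followed across adipose-derived stem cells (ASCs) of different depots, namely H19, Igf2, Igf2r, Dlk1, Meg3, Mest, Peg3, Cdkn1c, Grb10 and Plagl1. The members were taken by gene name from a count table of 54532 mouse genes, and each name matched 1 row. Bulk RNA sequencing had been performed on 9 samples of cultured cells, 3 each of perivascular ASCs (PVASCs), abdominal ASCs (Ab-ASCs) and subcutaneous ASCs (Sub-ASCs). All cells came from C57BL/6 mice, carried no transgene and no treatment according to the labels, and were expanded to passages 3 to 6 in the same stem cell medium, so that each group is a cultured and passaged population and not fresh tissue. The age and sex of the mice and the number of mice and cultures behind each group were not given, and p-values therefore measure only the spread between these samples, which may be technical. Between 20524173 and 29881036 reads were assigned to genes per library, and 3 reads, the limit that a count of 0 allows, corresponded to 0.0917 to 0.161 CPM (reads scaled to a common library total). Libraries of the same group differed by more than sampling noise (chi-square per degree of freedom of 2.92 to 29.1), which does not show that they came from separate cultures. Ab-ASC replicate 1 stood apart, with values of 29.1 and 18.4 against its group, compared with 8.13 or less for every other pair. Without it, the log2 fold changes of PVASCs against Ab-ASCs were 0.78 for Meg3, 1.67 for Peg3 and 2.08 for Plagl1, all still past the threshold. Other results of the members and their ratios that turn on it are given below. Single genes outside the members were not examined without it.

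Imprinted genes carry parental methylation marks at control regions that are set in the germ line and kept in somatic cells. Maternally and paternally expressed genes commonly lie side by side in clusters, and paternally expressed genes tend to promote growth whereas maternally expressed genes tend to restrain it. Many of these genes are abundant in fetal mesenchyme and are silenced together after birth, and in adipose tissue Dlk1 and Mest are known for their links to preadipocyte state and to fat mass expansion. The reads of an inbred strain do not tell the parental alleles apart, so that only the total level of each gene was measured here and its imprinting was not.

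The members lie on 6 chromosomes in the mm10 (GRCm38) coordinates of the count table. H19 (chr7:142575529-142578143), Igf2 (chr7:142650766-142666816) and Cdkn1c (chr7:143458339-143461050) lie on the distal part of chromosome 7, and Peg3 (chr7:6703892-6730431) lies on its proximal part, all on the minus strand. Dlk1 (chr12:109452823-109463336) and Meg3 (chr12:109541001-109571726) are neighbors on the plus strand of chromosome 12. Mest (chr6:30723547-30748465) and Plagl1 (chr10:13060504-13131694) lie on the plus strand, and Grb10 (chr11:11930508-12038683) and Igf2r (chr17:12682406-12769664) on the minus strand. H19 and Meg3 are long noncoding RNAs, and the other 8 members encode proteins.

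The promoters of 4 members are shown, chosen by the size of their differences. Cdkn1c, which was lower in PVASCs than in Sub-ASCs, had no matched promoter and is not among them. Dlk1, Mest and Plagl1 are the 3 paternally expressed members whose levels differed most between PVASCs and Sub-ASCs, and Grb10 is the tested member whose level differed least. Each sequence runs 5′ to 3′ on the strand of the gene, from 250 bases before to 50 bases from the RefSeq start site (GRCm38.p6). Every CpG dinucleotide is in capitals. Methylation was not measured, and the capitals do not mark imprint control regions.
Dlk1, chr12:109452573-109452872, plus strand: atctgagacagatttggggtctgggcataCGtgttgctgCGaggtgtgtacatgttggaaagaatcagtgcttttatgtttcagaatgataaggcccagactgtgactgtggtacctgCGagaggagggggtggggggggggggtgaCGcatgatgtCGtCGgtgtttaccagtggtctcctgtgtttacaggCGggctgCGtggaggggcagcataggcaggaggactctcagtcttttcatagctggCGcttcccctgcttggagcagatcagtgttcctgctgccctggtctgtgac
Mest, chr6:30737800-30738099, plus strand: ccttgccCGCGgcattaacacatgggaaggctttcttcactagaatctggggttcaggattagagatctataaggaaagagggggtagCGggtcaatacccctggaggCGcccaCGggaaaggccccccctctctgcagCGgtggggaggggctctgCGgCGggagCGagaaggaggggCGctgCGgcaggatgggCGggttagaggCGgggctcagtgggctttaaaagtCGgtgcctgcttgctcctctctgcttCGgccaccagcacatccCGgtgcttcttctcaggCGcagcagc
Plagl1, chr10:13090582-13090881, plus strand: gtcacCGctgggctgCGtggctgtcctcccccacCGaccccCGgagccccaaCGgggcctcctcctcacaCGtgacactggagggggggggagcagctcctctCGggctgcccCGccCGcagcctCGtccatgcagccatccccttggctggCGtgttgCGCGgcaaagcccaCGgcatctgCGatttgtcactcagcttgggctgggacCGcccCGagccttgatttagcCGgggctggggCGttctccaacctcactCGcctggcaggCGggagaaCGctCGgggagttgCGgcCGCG
Grb10, chr11:12037371-12037670, minus strand: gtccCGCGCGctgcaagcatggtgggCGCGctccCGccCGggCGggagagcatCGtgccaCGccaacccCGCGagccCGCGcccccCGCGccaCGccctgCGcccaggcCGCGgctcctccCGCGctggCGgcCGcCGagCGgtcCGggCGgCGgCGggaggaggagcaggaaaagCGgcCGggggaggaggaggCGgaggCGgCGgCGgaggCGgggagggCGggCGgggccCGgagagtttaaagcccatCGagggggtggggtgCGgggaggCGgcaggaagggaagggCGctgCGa

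The number of CpGs varied between the promoters and also between start sites of the same gene. The sequences shown held 9 CpGs in Dlk1, 17 in Mest, 26 in Plagl1 and 45 in Grb10, against a median of 7 over 32851 mouse promoters of the same length. At least 45 CpGs were found in 1.93% of all promoters and at least 9 in 45.8%. The second listed Grb10 promoter held only 9, and Mest has 2 further listed promoters, with 8 CpGs and, shifted by 3 bases from the sequence shown, with 17. RefSeq promoters were matched for 8 of the 10 members, 15 promoters in all. A search on both strands for the letters TATAAA found them in 1 of the 15 promoters, at Meg3, compared with 13.6% of all promoters. The letters GGGGCC, part of the GC-rich element that the Plagl1 protein is known to bind, were found on either strand in 8 of the 15 promoters, which belong to Mest, Peg3, Igf2, Plagl1 and Grb10, compared with 25.0% of all promoters. The motifs share no letters with each other, and a match describes the sequence only.

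PVASCs held the highest levels of most of the imprinted growth genes. Compared with Sub-ASCs, 8 of the 9 members that could be tested were higher in PVASCs and 1, Cdkn1c, was lower. Compared with Ab-ASCs, 8 members were higher in PVASCs and none was lower (also none by DESeq2 or at an unadjusted p under 0.05), and Cdkn1c did not pass the test. Igf2 was too low to be tested. The 9 tested members had at least 10 reads in every library. Differences between these groups were common across the genome (edgeR quasi-likelihood test, adjusted p under 0.05), since 70.4% of 16526 tested genes differed between PVASCs and Sub-ASCs, with 34.7% higher and 35.7% lower in PVASCs. The corresponding share for PVASCs and Ab-ASCs was 56.9%, with 24.7% higher and 32.1% lower. The median log2 fold change of the 9 members was 1.46 against Sub-ASCs and 1.90 against Ab-ASCs, compared with −0.01 and −0.06 over all tested genes. In such bulk samples, fewer cells of a type and less RNA per cell cannot be told apart.

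**Figure D1:**
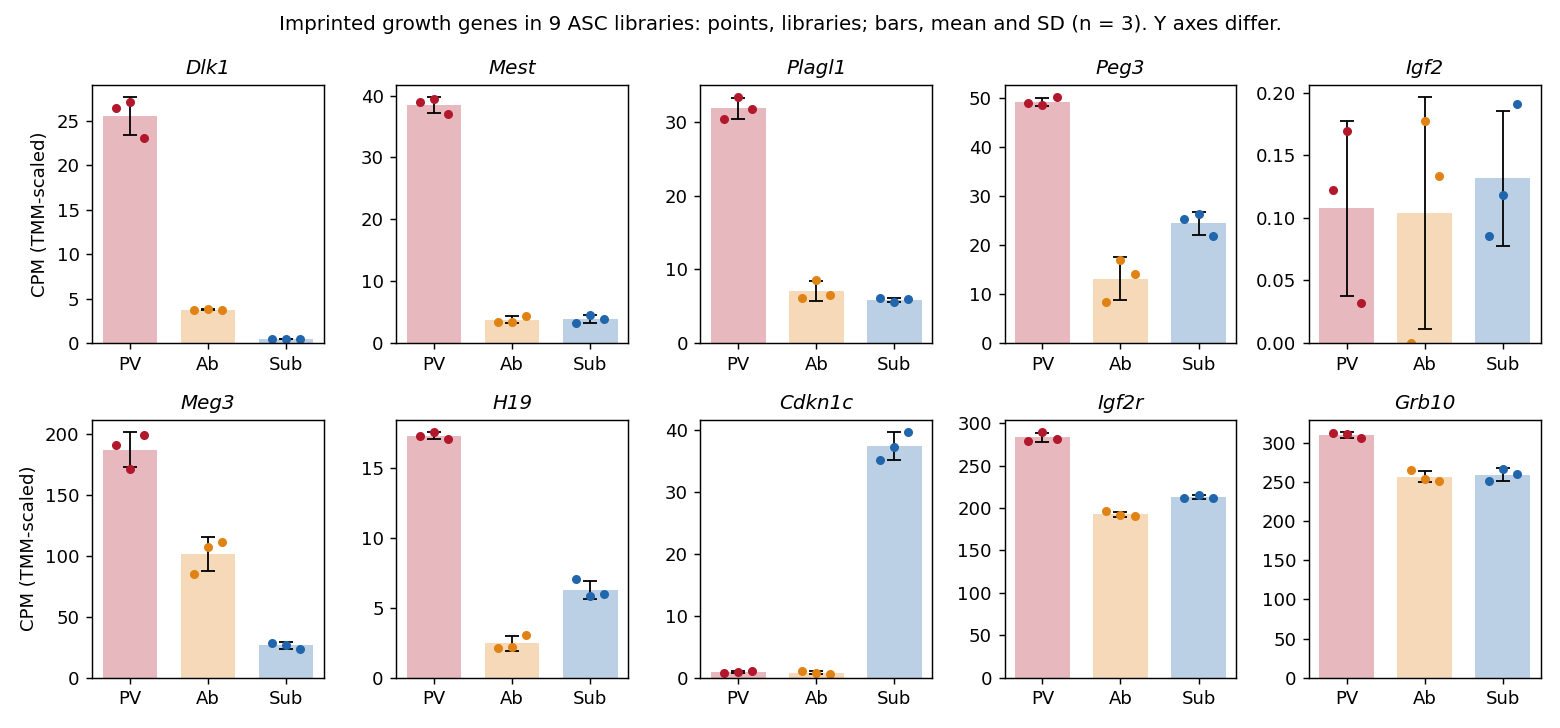
Level of each of the 10 members in CPM (TMM-scaled, linear axes from 0 that differ between panels) in PVASCs (PV), Ab-ASCs (Ab) and Sub-ASCs (Sub); points are single libraries and bars show the mean and SD of 3. PVASC libraries lie above all others for every member except Igf2 and Cdkn1c, and Cdkn1c reaches 35.2 to 39.7 CPM in Sub-ASCs against at most 1.08 CPM elsewhere.

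Dlk1, a transmembrane protein of the Notch ligand family that keeps preadipocytes undifferentiated, showed the largest fold change between groups among the tested members. Its level was 26.4, 27.1 and 23.1 CPM in the PVASC libraries, 3.70, 3.87 and 3.70 CPM in the Ab-ASC libraries, and 0.472, 0.472 and 0.458 CPM in the Sub-ASC libraries. The groups formed 3 separate steps without overlap. The PVASC level of Dlk1 was 54.2 times that of Sub-ASCs (log2 fold change 5.76, SE 0.134, adjusted p = 1.5e-12). Only 0.847% of tested genes rose by as much in that comparison. Ab-ASCs were intermediate, 6.79-fold below PVASCs and 7.98-fold above Sub-ASCs (log2 fold changes 2.76 and 2.996, adjusted p = 4.7e-10 and 7.6e-09). The Sub-ASC level rested on 11 or 12 reads per library.

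Meg3, the maternally expressed noncoding RNA that lies next to Dlk1, followed the same order with smaller fold changes. It was measured at 191, 171 and 199 CPM in PVASCs, at 85.2, 107 and 111 CPM in Ab-ASCs and at 28.8, 26.8 and 23.8 CPM in Sub-ASCs. Again no library of any group reached into another group. In PVASCs, Meg3 was 7.08-fold above Sub-ASCs (log2 fold change 2.82, SE 0.109, adjusted p = 1.6e-10) and 1.85-fold above Ab-ASCs (log2 fold change 0.89, SE 0.100, adjusted p = 1.4e-05). It was 3.83-fold higher in Ab-ASCs than in Sub-ASCs (log2 fold change 1.94, adjusted p = 5.1e-09).

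The balance between these reciprocally imprinted neighbors shifted with the depot. Per unit of gene length, the log2 ratio of Meg3 to Dlk1 rose from 1.20 ± 0.22 in PVASCs over 3.06 ± 0.20 in Ab-ASCs to 4.08 ± 0.11 in Sub-ASCs (SD, n = 3 each). The ratio therefore corresponded to 2.29, 8.31 and 16.9 Meg3 reads per Dlk1 read at equal length. The groups differed by an exact permutation test of the F statistic over 1680 assignments of libraries (p = 0.00357, the smallest value this design can give, 0.0107 after Benjamini-Hochberg adjustment over 3 ratios). Both genes were highest in PVASCs, and Dlk1 changed by the larger factor.

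Mest, a paternally expressed gene for an alpha/beta hydrolase-fold protein associated with adipocyte enlargement, was set apart in PVASCs alone. The PVASC libraries held 39.0, 39.4 and 37.1 CPM, the Ab-ASC libraries 3.38, 3.42 and 4.37 CPM, and the Sub-ASC libraries 3.22, 4.48 and 3.89 CPM. PVASCs stood clear of all other libraries, whereas Ab-ASCs and Sub-ASCs overlapped. The difference was 9.92-fold against Sub-ASCs (log2 fold change 3.31, SE 0.116, adjusted p = 6.1e-11) and 10.3-fold against Ab-ASCs (log2 fold change 3.36, SE 0.119, adjusted p = 4.5e-10). Between Ab-ASCs and Sub-ASCs the log2 fold change was −0.05 (SE 0.145, adjusted p = 0.757).

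Plagl1, a zinc finger transcription factor known as a regulator of other imprinted genes, had the same shape. It was measured at 30.4, 33.4 and 31.7 CPM in PVASCs, at 6.07, 8.53 and 6.51 CPM in Ab-ASCs, and at 6.10, 5.50 and 5.95 CPM in Sub-ASCs. The last 2 groups overlapped at about 6 CPM. PVASCs exceeded Sub-ASCs 5.44-fold (log2 fold change 2.44, SE 0.112, adjusted p = 8.4e-10) and Ab-ASCs 4.50-fold (log2 fold change 2.17, SE 0.112, adjusted p = 1.2e-08). Its difference between Ab-ASCs and Sub-ASCs did not pass the test (log2 fold change 0.27, SE 0.127, adjusted p = 0.068), although it did without Ab-ASC replicate 1 (log2 fold change 0.37, adjusted p = 0.0117).

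Peg3, a large zinc finger protein expressed from the paternal allele, and H19, the maternally expressed noncoding RNA downstream of Igf2, shared another order, with Sub-ASCs between the other groups. Peg3 was measured at 48.9, 48.4 and 50.1 CPM in PVASCs, at 25.2, 26.3 and 21.8 CPM in Sub-ASCs and at 8.27, 16.8 and 14.0 CPM in Ab-ASCs. The groups did not overlap, and Ab-ASC replicate 1 lay lowest. Peg3 in PVASCs was 2.01-fold above Sub-ASCs (log2 fold change 1.01, SE 0.161, adjusted p = 0.00012) and 3.73-fold above Ab-ASCs (log2 fold change 1.90, SE 0.173, adjusted p = 2.1e-06). It was lower in Ab-ASCs than in Sub-ASCs by 0.89 on the log2 scale (log2 fold change −0.89, SE 0.177, adjusted p = 0.00059), and the log2 fold change was −0.65 without Ab-ASC replicate 1 (adjusted p = 1.5e-06).

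H19 gave the same order at lower levels. It was measured at 17.3, 17.6 and 17.1 CPM in PVASCs, at 7.04, 5.86 and 5.99 CPM in Sub-ASCs and at 2.15, 2.18 and 3.08 CPM in Ab-ASCs. All 3 groups were separate. PVASCs were 2.76-fold above Sub-ASCs (log2 fold change 1.46, SE 0.113, adjusted p = 1.3e-07) and 6.97-fold above Ab-ASCs (log2 fold change 2.80, SE 0.132, adjusted p = 5.4e-09). Ab-ASCs were 2.53-fold below Sub-ASCs (log2 fold change −1.34, SE 0.146, adjusted p = 3.4e-06).

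Cdkn1c, which encodes the cyclin-dependent kinase inhibitor p57, was the exception. This maternally expressed gene was measured at 35.2, 37.3 and 39.7 CPM in Sub-ASCs, at 0.825, 0.949 and 1.08 CPM in PVASCs and at 1.02, 0.756 and 0.624 CPM in Ab-ASCs. Sub-ASC libraries were far above all others, and PVASCs and Ab-ASCs overlapped. Cdkn1c was 39.1-fold lower in PVASCs than in Sub-ASCs (log2 fold change −5.29, SE 0.127, adjusted p = 1.9e-12) and 47.2-fold lower in Ab-ASCs (log2 fold change −5.56, SE 0.140, adjusted p = 2.9e-12). A fall as large as that between Sub-ASCs and PVASCs was seen in 2.01% of tested genes. PVASCs and Ab-ASCs did not differ by the test (log2 fold change 0.27, SE 0.222, adjusted p = 0.356).

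Other sets of genes also differed between Sub-ASCs and both other groups. Over all tested genes, 34.7% and 37.0% were lower in Sub-ASCs than in PVASCs and in Ab-ASCs, and 35.7% and 38.3% were higher. All 15 markers of proliferating cells were lower in Sub-ASCs, with summed levels of 86.9 to 97.4 CPM against 990.2 to 999 CPM in PVASCs and 1067 to 1130.4 CPM in Ab-ASCs. Mki67 alone was at 9.49 to 12.7 CPM in Sub-ASCs, and none of the 15 markers was at 0. The 10 genes of the interferon response list were all higher in the same cells, with summed levels of 1954 to 2041 CPM against 96.3 to 112 CPM in the other libraries, where Mx1 was at 0.153 CPM or less. The part of cell division and of the interferon response in the Cdkn1c difference was not tested.

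Igf2r and Grb10 were the most abundant members, and their largest changes over the 3 comparisons were the smallest among the tested members. Igf2r, the receptor that carries the Igf2 ligand to lysosomes, was measured at 279, 289.5 and 281 CPM in PVASCs, at 196, 192 and 190.1 CPM in Ab-ASCs and at 211, 215 and 211 CPM in Sub-ASCs. The groups were separate but close. The PVASC level was 1.33-fold above that of Sub-ASCs (log2 fold change 0.41, SE 0.0447, adjusted p = 3.5e-06) and 1.47-fold above that of Ab-ASCs (log2 fold change 0.56, SE 0.0449, adjusted p = 7.1e-07). The small difference between Ab-ASCs and Sub-ASCs (log2 fold change −0.14, SE 0.0449, adjusted p = 0.0121) did not pass the threshold under 2 alternatives, although its size changed little. These were the fit without Ab-ASC replicate 3 (log2 fold change −0.13, adjusted p = 0.0613) and that without the filter on low counts (−0.13, adjusted p = 0.0984).

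Grb10, a maternally expressed adaptor that inhibits signaling from the insulin and Igf1 receptors, was measured at 313, 312 and 306 CPM in PVASCs, at 265, 254 and 251 CPM in Ab-ASCs and at 251, 267 and 260.3 CPM in Sub-ASCs. PVASCs lay above the other groups, which overlapped. The difference was 1.20-fold against Sub-ASCs (log2 fold change 0.26, SE 0.047, adjusted p = 0.00034) and 1.21-fold against Ab-ASCs (log2 fold change 0.27, SE 0.0471, adjusted p = 0.00041). A rise as large as that against Sub-ASCs was seen in 37.0% of all tested genes. Ab-ASCs and Sub-ASCs differed by −0.01 on the log2 scale (SE 0.0472, adjusted p = 0.794).

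**Figure D2:**
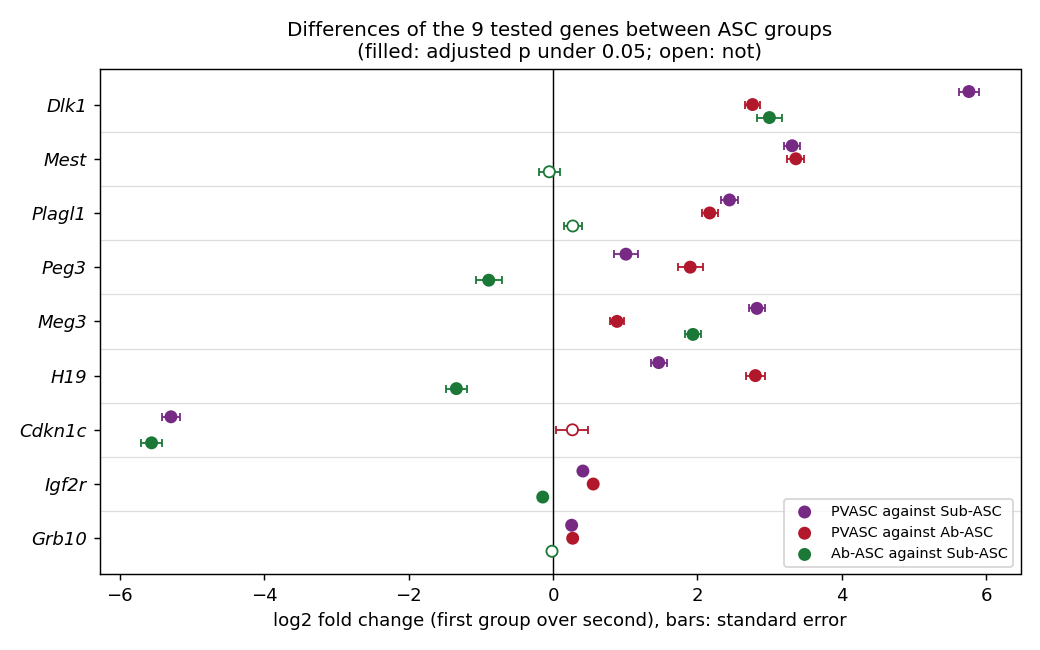
Log2 fold changes of the 9 tested members in the 3 comparisons between ASC groups, with standard errors as bars and filled symbols where the adjusted p was under 0.05. Cdkn1c reaches −5.29 and −5.56 against Sub-ASCs, Dlk1 reaches 5.76, and Igf2r and Grb10 lie between −0.14 and 0.56.

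Igf2, the fetal growth factor of the set, was close to the limit of detection in every depot. The libraries held 4, 5 and 1 reads in PVASCs, 0, 4 and 3 reads in Ab-ASCs and 2, 3 and 5 reads in Sub-ASCs, or at most 0.191 CPM. The 0 reads of Ab-ASC replicate 1 allow a level of up to 0.161 CPM by counting error alone. The groups overlapped, and no fold is given. Fitted without the filter on low counts, Igf2 had an adjusted p of 0.850 between PVASCs and Sub-ASCs, of 1.0 between PVASCs and Ab-ASCs, and of 0.891 for the remaining pair.

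The annotation limits what the Igf2 count can show. Of 5723 exonic bases of Igf2, 3596 are shared with Gm49394, a protein-coding gene model on the same strand, and 98 with the antisense gene Igf2os, so that 2029 bases (35.5%) belong to Igf2 alone. The shared bases include nearly all of the last exons and 546 of the 678 coding bases (80.5%). Gm49394 had 0 reads in all 9 libraries. Across the table, of the genes with at least 500 exonic bases, no read was counted for 102 of 127 (80.3%) whose exonic bases were all shared on the same strand, compared with 11795 of 29949 (39.4%) that shared none. Whether reads in the shared exons were counted for any gene is not given in the sources used here, so that the part of the gene that its count covers is not known. Scaled to the unshared bases in place of all listed bases, Igf2 reached 0.0532 FPKM (CPM per kilobase of gene length) on average in PVASCs, 0.0512 FPKM in Ab-ASCs and 0.0648 FPKM in Sub-ASCs.

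**Figure D3:**
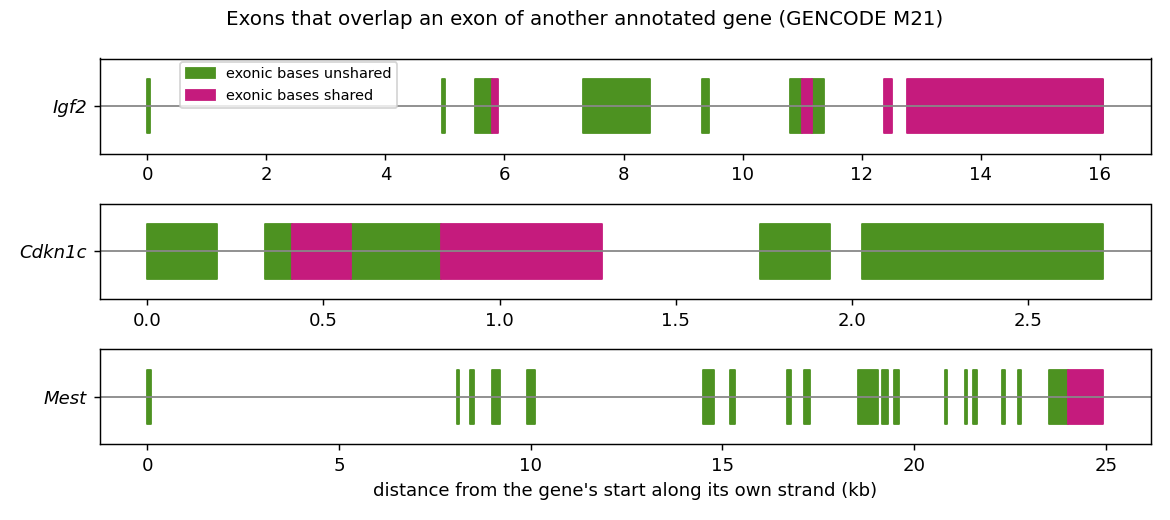
Exons of Igf2, Cdkn1c and Mest along each gene (distance from its start on its own strand in kb), with exonic bases shared with another annotated gene in pink and unshared bases in green. The last exons of Igf2 are pink apart from 3 bases at the very end, and its other unshared bases lie upstream of them.

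Some other members share exons to a lesser degree. Cdkn1c shares 625 bases (30.7% of its exonic bases) with the antisense model Gm44732, which had 0 reads. All of these bases are coding and make up 57.9% of its coding sequence. Mest shares 912 bases (23.1%), none of them coding, with the antisense gene Copg2. Of the genes with at least 500 exonic bases that were all shared with the opposite strand, 142 of 145 (97.9%) had no read in the table. Copg2 was at 31.2 to 32.9 CPM in PVASCs, 23.4 to 27.2 CPM in Ab-ASCs and 21.6 to 26.0 CPM in Sub-ASCs. It was higher in PVASCs by log2 fold changes of 0.38 and 0.31 (adjusted p = 0.0013 and 0.0071), against 3.31 and 3.36 for Mest. H19 and Meg3 kept 90.9% and 91.7% of their bases to themselves, and Igf2r, Dlk1, Peg3 and Grb10 all of them.

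Since the Igf2 ligand, its clearance receptor and H19 are commonly read together, their ratios were formed within each library with 0.5 read added to each count. The log2 ratio of H19 to Igf2 per unit of gene length ranged from 8.56 ± 1.01 in PVASCs over 6.65 ± 0.60 in Sub-ASCs to 5.92 ± 1.48 in Ab-ASCs (SD, n = 3 each). On unshared bases these means were 7.20, 5.29 and 4.56. By these values H19 exceeded Igf2 in every library, although the part of Igf2 that its count covers is not known. The groups did not differ by the exact permutation test (p = 0.0607, 0.0911 after adjustment over 3 ratios). The call depended on few reads, since adding 1 read in place of 0.5 gave an exact p of 0.0107 and leaving out Ab-ASC replicate 1 gave 0.00714. The log2 ratio of Igf2 to Igf2r ranged from −10.7 ± 1.02 in PVASCs over −10.3 ± 1.60 in Ab-ASCs to −9.81 ± 0.49 in Sub-ASCs, with no difference detected (exact permutation p = 0.646), and on unshared bases the means were −9.17, −8.80 and −8.31.

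Between Ab-ASCs and Sub-ASCs the members went in both directions. Dlk1 and Meg3 were higher in Ab-ASCs, H19, Igf2r, Peg3 and Cdkn1c were lower, and Mest, Grb10 and Plagl1 did not pass the test. That is 6 of 9 members, where 75.3% of all tested genes differed, 37.0% higher and 38.3% lower in Ab-ASCs. Over the 9 members the median log2 fold change was −0.05, compared with −0.03 over all tested genes. In a test of any difference among the 3 groups, all 9 members passed, against 84.6% of tested genes.

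The ranking of the members by level per listed gene length differed between depots. In PVASCs, Grb10 (34.1 ± 0.4 FPKM) and Igf2r (30.4 ± 0.6 FPKM) came first, followed by Meg3 (10.3 ± 0.8 FPKM) and Mest (9.76 ± 0.31 FPKM), whose libraries overlapped. Then came H19 (7.05 ± 0.10 FPKM), Dlk1 (4.52 ± 0.38 FPKM), Plagl1 (4.07 ± 0.19 FPKM), Peg3 (3.69 ± 0.06 FPKM), Cdkn1c (0.467 ± 0.063 FPKM) and Igf2 (0.0188 ± 0.0122 FPKM), with Dlk1 and Plagl1 overlapping. In Sub-ASCs, Cdkn1c was at 18.3 ± 1.1 FPKM, behind Grb10 (28.5 ± 0.9 FPKM) and Igf2r (22.8 ± 0.3 FPKM). Per unshared length, however, Cdkn1c was at 24.9 to 28.1 FPKM, above Igf2r (22.7 to 23.1 FPKM) and overlapping Grb10 (27.6 to 29.4 FPKM). Dlk1 (0.0826 ± 0.0015 FPKM) was above Igf2 (0.0230 ± 0.0094 FPKM) per listed length, but per unshared length Igf2 (0.0423 to 0.0940 FPKM) overlapped it. Likewise, in PVASCs Mest (12.7 ± 0.41 FPKM) and Meg3 (11.3 ± 0.87 FPKM) no longer overlapped per unshared length. In Ab-ASCs, H19, Peg3, Mest and Plagl1 lay together between 0.621 and 1.26 FPKM and could not be ordered beyond their spread, and Dlk1 (0.654 to 0.684 FPKM) overlapped Peg3. Per unshared length, Mest (1.12 to 1.44 FPKM) and Plagl1 (0.780 to 1.097 FPKM) separated there.

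The members were also grouped by the parental allele from which they are usually expressed. The 4 tested paternally expressed members (Dlk1, Mest, Peg3 and Plagl1) were all higher in PVASCs in both comparisons, where 34.7% and 24.7% of all tested genes were higher, with median log2 fold changes of 2.88 and 2.47. Their summed level, with Igf2 included, was 142 to 148 CPM in PVASCs, 21.4 to 32.8 CPM in Ab-ASCs and 32.3 to 36.9 CPM in Sub-ASCs. The 5 maternally expressed members (H19, Igf2r, Meg3, Cdkn1c and Grb10) were higher in PVASCs in 4 of 5 cases in each comparison, with 1 lower against Sub-ASCs and none lower against Ab-ASCs. They had medians of 0.41 and 0.56, and their summed level was 791 to 804 CPM, 549.6 to 556 CPM and 533 to 552 CPM. The difference between the parental classes was not tested.

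The neighbors of the members in their imprinted clusters were examined next. In the Dlk1-Dio3 cluster, the noncoding RNAs Rian and Mirg, which are transcribed from the maternal allele downstream of Meg3, went with Meg3. Rian was at 286 to 302 CPM in PVASCs, 186 to 204 CPM in Ab-ASCs and 18.8 to 19.2 CPM in Sub-ASCs. Its log2 fold change against Sub-ASCs was 3.95 in PVASCs and 3.37 in Ab-ASCs (adjusted p = 5.1e-14 and 1.5e-13), and that of Mirg was 4.02 and 3.50 (adjusted p = 2.6e-10 and 1.9e-09). The paternally expressed genes Rtl1, a retrotransposon-derived gene, and Dio3, the thyroid hormone deiodinase, were also higher than in Sub-ASCs. Unlike Dlk1, however, Dio3 was lower in PVASCs than in Ab-ASCs (log2 fold change −0.56, adjusted p = 0.00094), and Rtl1 showed no difference there (log2 fold change −0.17, SE 0.427, adjusted p = 0.757). Begain, at the edge of the cluster, had a log2 fold change of −0.05 between PVASCs and Sub-ASCs (adjusted p = 0.705). It was lower in PVASCs than in Ab-ASCs (log2 fold change −0.42, adjusted p = 0.0104) and higher in Ab-ASCs than in Sub-ASCs (0.37, adjusted p = 0.017).

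In the Kcnq1 domain around Cdkn1c, the transporter gene Slc22a18 shared the direction of Cdkn1c. It was at 3.22 to 4.56 CPM in Sub-ASCs, 0.367 to 0.949 CPM in PVASCs and 0.357 to 0.805 CPM in Ab-ASCs, with log2 fold changes of −2.44 and −2.76 against Sub-ASCs (adjusted p = 9.8e-06 and 8.5e-06). Kcnq1ot1, the noncoding RNA that silences this domain on the paternal allele, was also higher in Sub-ASCs, at 10.2 to 11.2 CPM compared with 6.54 to 7.59 CPM in PVASCs (log2 fold change −0.65, adjusted p = 0.00067). The domain did not move as a block. Osbpl5, an oxysterol-binding protein gene, was higher in PVASCs than in Sub-ASCs (log2 fold change 0.23, adjusted p = 0.0014), Kcnq1 itself, at 1.07 CPM or less in all libraries, was lower (log2 fold change −1.21, adjusted p = 0.0406), Ascl2 gave −0.41 (adjusted p = 0.384), and Phlda2 had at most 2 reads per library.

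Among the neighbors of the remaining members, Zim1, the zinc finger gene beside Peg3, was at 4.03 to 4.20 CPM in PVASCs, 1.23 to 2.58 CPM in Ab-ASCs and 0.172 to 0.648 CPM in Sub-ASCs. It was higher in PVASCs by log2 fold changes of 3.12 against Sub-ASCs and 0.99 against Ab-ASCs (adjusted p = 2.0e-06 and 0.0052). It was also higher in Ab-ASCs than in Sub-ASCs (log2 fold change 2.13, adjusted p = 0.00017), where Peg3 was lower. Usp29 did not pass the filter, with 9 to 22 reads in PVASCs and at most 3 elsewhere. The strandedness of the reads is not given, so that intronic Igf2r reads cannot be told apart from Airn where these genes overlap. Airn, the noncoding RNA antisense to Igf2r, was at 2.93 to 3.52 CPM in PVASCs, 2.36 to 3.13 CPM in Sub-ASCs and 0.913 to 1.65 CPM in Ab-ASCs. It was higher in PVASCs than in Ab-ASCs (log2 fold change 1.37, adjusted p = 0.00018) and lower in Ab-ASCs than in Sub-ASCs (log2 fold change −1.13, adjusted p = 0.00054). Ddc, next to Grb10, was at 1.13 CPM or less and was higher in Ab-ASCs than in Sub-ASCs (log2 fold change 1.47, adjusted p = 0.0057), with 0.70 for PVASCs against Sub-ASCs (adjusted p = 0.155). Ins2 and Zfp264 had 0 reads in every library, Klf14 and Slc22a2 at most 2, and Slc22a3 had 8 to 19 reads in Ab-ASCs and at most 3 elsewhere.

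**Figure D4:**
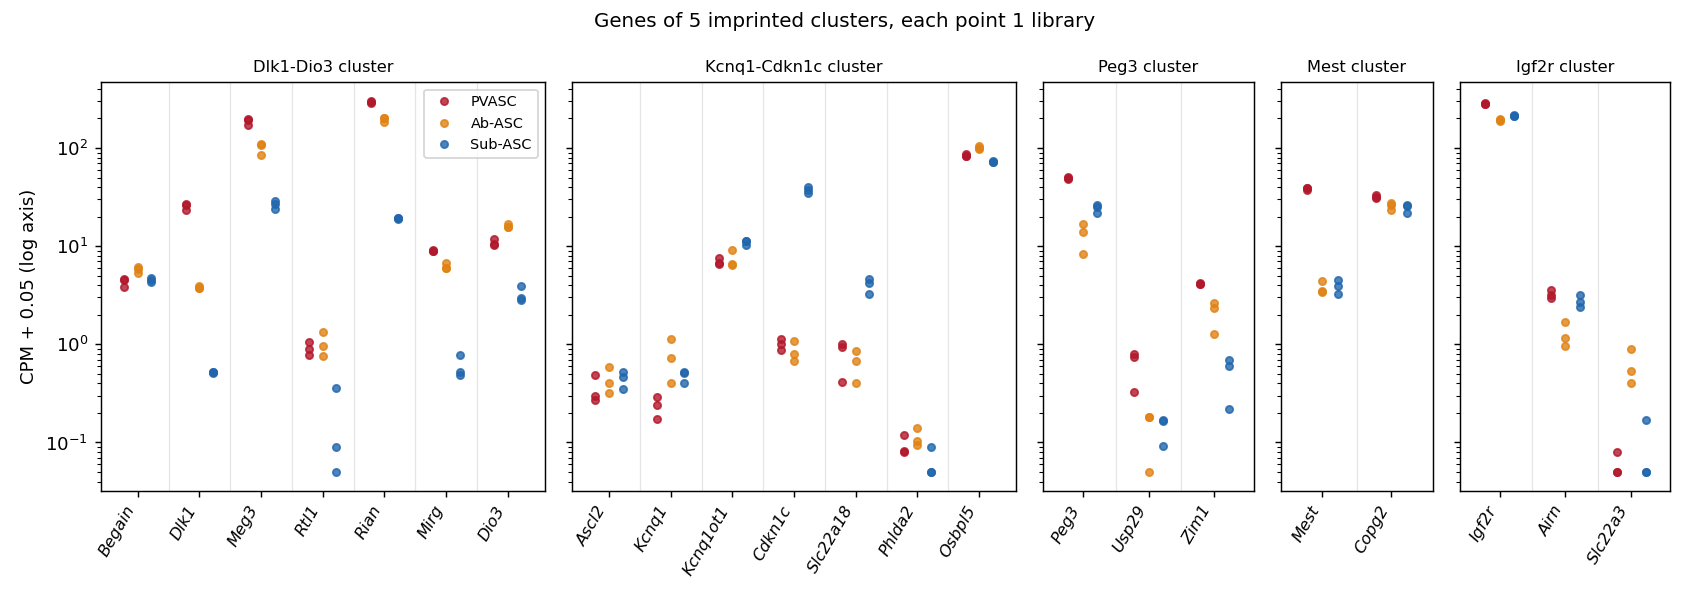
Levels of members and their neighbors in 5 imprinted clusters, as CPM with 0.05 added on a log axis, where each point is 1 library. Rian and Mirg lie beside Meg3 in the order PVASC, Ab-ASC, Sub-ASC, and Cdkn1c and Slc22a18 are the genes of their cluster with Sub-ASCs far on top.

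Beyond the members, a list of 52 further genes known as imprinted was examined. Whether they are imprinted in these cells was not measured. Of the 40 that passed the filter, 20 were higher and 8 lower in PVASCs than in Sub-ASCs, 17 were higher and 11 lower in PVASCs than in Ab-ASCs, and 21 were higher and 11 lower in Ab-ASCs than in Sub-ASCs. In either direction that is 28, 28 and 32 of 40 genes, where 70.4%, 56.9% and 75.3% of all tested genes differed. The medians of their log2 fold changes were 0.41, 0.01 and 0.43, compared with −0.01, −0.06 and −0.03 over all tested genes. Slc38a4, an amino acid transporter gene, was likewise highest in PVASCs, at 29.2 to 30.7 CPM in PVASCs, 2.10 to 2.93 CPM in Ab-ASCs and 1.18 to 1.63 CPM in Sub-ASCs. Its log2 fold changes in PVASCs were 4.37 and 3.60 (adjusted p = 1.3e-11 and 3.1e-10). Nnat, which encodes the small membrane protein neuronatin, was higher in PVASCs by 2.82 and 1.68 on the log2 scale, and Zdbf2 by 2.48 and 1.09. Nap1l5 was higher than in Sub-ASCs in PVASCs (log2 fold change 2.39) but not different from Ab-ASCs (0.03, adjusted p = 0.936). Dcn, the matrix proteoglycan decorin, went the other way, at 8444 to 9675 CPM in Sub-ASCs, 252 to 445 CPM in Ab-ASCs and 107 to 115 CPM in PVASCs (log2 fold change −6.31 between PVASCs and Sub-ASCs, adjusted p = 1.5e-11).

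Genes of IGF and insulin signaling were mostly lower in PVASCs than in Sub-ASCs. Of 14 IGF ligand, receptor and adaptor genes, 13 were tested, and 3 rose and 10 fell in PVASCs relative to Sub-ASCs. Compared with Ab-ASCs, 6 were higher and 3 lower in PVASCs, and between Ab-ASCs and Sub-ASCs 2 were higher and 10 lower in Ab-ASCs. Over all tested genes, the shares higher and lower were 34.7% and 35.7%, 24.7% and 32.1%, and 37.0% and 38.3% in these comparisons. Igf1, the ligand that shares its receptor with Igf2, was at 88.3 to 101 CPM in Sub-ASCs, 27.5 to 29.6 CPM in PVASCs and 19.6 to 21.2 CPM in Ab-ASCs. It was lower in PVASCs than in Sub-ASCs by a log2 fold change of −1.70 (adjusted p = 2.3e-10). The insulin receptor gene Insr gave −0.97 and the docking protein gene Irs1 −0.35 in the same comparison (adjusted p = 1.5e-08 and 0.0052). Against Ab-ASCs, all 3 were higher in PVASCs, by log2 fold changes of 0.51 for Igf1, 0.32 for Insr and 0.78 for Irs1 (adjusted p = 9.2e-05, 0.00082 and 4.2e-05). Grb14, the adaptor most closely related to Grb10, was the largest rise of the list in PVASCs, at 48.3 to 51.3 CPM against 25.2 to 29.1 CPM in Ab-ASCs and 13.4 to 16.5 CPM in Sub-ASCs (log2 fold changes 1.75 and 0.89, adjusted p = 1.8e-09 and 2.6e-06).

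Of 18 factors linked to imprints or to DNA methylation, 16 were tested, and 6 rose and 4 fell in PVASCs relative to Sub-ASCs. Against Ab-ASCs, 8 were higher and 4 lower in PVASCs, and between Ab-ASCs and Sub-ASCs 6 were higher and 7 lower in Ab-ASCs. In either direction that is 10, 12 and 13 of 16, beside 70.4%, 56.9% and 75.3% of all tested genes. Zfp57, the zinc finger protein that guards methylated imprints, was at 24.5 to 25.4 CPM in PVASCs, 12.2 to 14.5 CPM in Ab-ASCs and 6.41 to 7.30 CPM in Sub-ASCs, and was higher in PVASCs by log2 fold changes of 1.89 and 0.89 (adjusted p = 9.5e-10 and 2.4e-06). Uhrf1, which recruits the maintenance methyltransferase to replicating DNA, and Hells, a chromatin remodeler of methylated DNA, were higher in PVASCs than in Sub-ASCs by 2.53 and 2.51 on the log2 scale (adjusted p = 5.8e-12 and 5.0e-08). Against Ab-ASCs they diverged, with Uhrf1 lower (log2 fold change −0.30, adjusted p = 0.0011) and Hells higher in PVASCs (log2 fold change 1.08, adjusted p = 0.00012). Both genes are known to follow cell division, whose markers were also higher in PVASCs than in Sub-ASCs (15 of 15), and the part of cell division in these differences was not tested. Dnmt3l, a cofactor of de novo methylation, was lower in PVASCs than in both other groups (log2 fold changes −1.08 and −1.87, adjusted p = 5.6e-06 and 8.1e-08).

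The labels were set against marker genes. All 8 surface markers of adipose stem cells were detected in every library, although Ly6a (Sca-1) ranged from 1919 to 2138 CPM in Sub-ASCs to 19.8 to 25.7 CPM in Ab-ASCs. Of the 6 adipocyte markers, Lep was at 0 in all libraries and Adipoq at 0.839 CPM or less, whereas Plin1 was at 17.6 to 19.9 CPM in Sub-ASCs and 0.339 CPM or less elsewhere. All 4 tested adipocyte markers were higher in Sub-ASCs than in both other groups, as Cdkn1c was, and the 6 summed to 187 to 195 CPM in Sub-ASCs, 69.6 to 74.9 CPM in PVASCs and 49.0 to 53.4 CPM in Ab-ASCs. Markers of other cell types moved with the groups in which the members differed. Summed over 7 endothelial markers, PVASCs held 717 to 725 CPM, Sub-ASCs 178 to 192 CPM and Ab-ASCs 63.8 to 65.8 CPM, an order shared with H19, Peg3 and Igf2r. Of these 7, 5 were higher and 2 lower in PVASCs than in Sub-ASCs, 6 were higher in PVASCs than in Ab-ASCs, and Emcn, Cdh5 and Pecam1 (CD31, 177 to 182 CPM) made up most of the PVASC sum while Cldn5 was at 1.02 CPM or less there. The 12 mesothelial markers summed to 139 to 148 CPM in Ab-ASCs, 62.2 to 63.5 CPM in PVASCs and 8.46 to 9.51 CPM in Sub-ASCs, where Upk1b and Lrrn4 were at 0. The 6 smooth muscle markers summed to 4566 to 5640.1 CPM, 2758 to 2900.2 CPM and 90.8 to 95.9 CPM in the same order. Most of this was Acta2 alone, at 4017 to 5042 CPM, 2454 to 2598 CPM and 49.4 to 55.0 CPM. The 7 markers of macrophages and blood cells summed to 259 to 262 CPM in Sub-ASCs, 301 to 311 CPM in PVASCs and 313 to 408 CPM in Ab-ASCs, mostly from Lyz2, while 5 of the 7 were higher in Sub-ASCs than in each other group. The methods describe PVASCs as lacking surface CD31 and CD45 by flow cytometry, and name no sort on these proteins before sequencing. The part of these cell types in the differences of the imprinted genes was not tested.

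Finally, the genes whose log2 CPM followed each member most closely over the 9 libraries were listed. The libraries fall into 3 groups of 3, so that a Pearson correlation here mainly compares group means. Dlk1 was most like Cpe, Pde8b and Klhl6 (r = 0.999 each), and Meg3 was most like Sinhcaf, Fat4 and Osbpl6 (r = 0.998, 0.997 and 0.997). Plxna4, Col8a1 and Tbx20, the T-box factor, came first for Mest (r = 0.997, 0.996 and 0.996), and Etv1, Lingo3 and Wwtr1 for Plagl1 (r = 0.998, 0.997 and 0.994). For H19 they were Arhgef15, Prom1 and St6gal1 (r = 0.998, 0.998 and 0.993), and for Peg3 Dcun1d1, Cav1 and Cbx3 (r = 0.997, 0.996 and 0.993). Igf2r came with Ctla2a, Thy1 and Rasgrp3 (r = 0.997, 0.996 and 0.996), and Grb10 with E230034D01Rik, F11r and Cd24a (r = 0.989, 0.989 and 0.983). Cdkn1c was most like Tgtp2, Srebf1 and Igfbp4 (r = 0.999 each), and 1680 genes had an r over 0.95 with it, compared with 105 for Grb10. Among the members themselves, the closest pairs were Mest and Plagl1 (r = 0.979), Mest and Grb10 (r = 0.974), Dlk1 and Meg3 (r = 0.973), Igf2r and Mest (r = 0.965), Igf2r and Grb10 (r = 0.962) and H19 and Peg3 (r = 0.955), and Cdkn1c ran against Meg3 (r = −0.935).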

How the data were processed

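The authors deposited 1 table of raw read counts per gene. The submitters' processing notes name CASAVA 1.8, Bowtie 0.12.2, featureCounts 1.5.0-p3 and the builds mm8 and mm10, and listed positions equaled GENCODE M21 on GRCm38 for 98.3% of genes. Strandedness and the treatment of reads shared by overlapping genes are not given in the sources used here. Counts were analyzed with edgeR 4.0.16 (R 4.3.3). Genes were filtered with filterByExpr (minimum count 10), leaving 16526, libraries were scaled by TMM, and all 9 libraries were fitted by group with the quasi-likelihood F-test and Benjamini-Hochberg adjustment over all tested genes (threshold 0.05). Standard errors (SE) of log2 fold changes were derived from the test, as the absolute log2 fold change divided by the square root of its F statistic. FPKM is CPM divided by listed gene length in kb. Alternatives were RLE size factors, DESeq2 1.42.0, other count filters, pairwise fits, a fold threshold, replicate blocks and omission of each library. Members and lists were chosen with earlier results of these data known. Named are the members, their cluster neighbors, the 5 further imprinted genes and 4 genes of each pathway list with the largest called differences, markers where needed, and the 3 genes most like each member.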

Additional observations from a re-analysis of the deposited data

How the results depend on the processing

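Of 405 values of single member fold changes under the alternatives, 396 kept their direction and their side of the threshold, and in both comparisons with PVASCs every member kept both under all alternatives other than a fold threshold. Those that did not concern Ab-ASCs against Sub-ASCs and are given above for Igf2r and Plagl1, while the small log2 fold changes of Mest and Grb10, never past the threshold, changed sign when single libraries were left out (ranges −0.181 to 0.0744 and −0.0407 to 0.0140). Requiring a log2 fold change of at least 1 left 7 of 9, 5 of 8 and 4 of 6 members called, and 5328, 2551 and 6241 of 11628, 9396 and 12442 genes called over the table in the order of PVASCs with Sub-ASCs, PVASCs with Ab-ASCs, and the remaining pair. Leaving out each library in turn gave 9 members called, 8, and 5 to 7 in that order, and 9 for any difference. With the replicate number as a block, 9, 8, 6 and 9 members were called, the same counts as without it. The numbers were not treated as pairs, since correlations of same-numbered deviations ran from −0.0514 to 0.095. The largest difference between groups in the log2 ratio of H19 to Igf2 was 2.64, 2.84 with 1 read added (exact permutation p = 0.0107) and 2.02 to 3.46 with each library left out. That of Igf2 to Igf2r was 0.86 (0.49 to 1.29) and that of Meg3 to Dlk1 2.89 (2.78 to 3.003). The ratios without each library and with unshared bases only were chosen after seeing the data, and with 0 reads added the ratios with Igf2 have no value. Few reads limit Igf2, and the depth of Dlk1 in Sub-ASCs and of Cdkn1c in Ab-ASCs was 11 to 19 reads per library.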
